A study of Homo sapiens with 6 samples.

Results

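Semaphorins are secreted or membrane-bound guidance ligands, plexins are their main receptors, and neuropilins are co-receptors that hold secreted semaphorins and several growth factors. In U87 cells sorted by their uptake of a cyclic peptide, 31 genes of these families were among the 25680 gene symbols counted. They were chosen by symbol: 20 semaphorins of classes 3 to 7, 9 plexins and both neuropilins. Enough reads for a test were found for 28 of the 31. NRP1, NRP2 and SEMA5A rose in high uptake cells and SEMA6B fell, while 24 tested members did not pass the threshold. Among all tested genes, 4.29% passed. SEMA5A and SEMA6B also passed under each of 17 other settings of the analysis. The NRP1 call was lost under 4 of these settings and the NRP2 call under 8.

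U87 is an established human glioblastoma line, labelled here as wild type. High uptake cells were the top 30% by rhodamine fluorescence and low uptake cells the bottom 30%, after every cell had received 500 nM of the cyclic peptide EPP6 carrying a rhodamine tag for 1 h and had been detached. RNA was sequenced from 3 libraries of high uptake cells and 3 of low uptake cells, numbered 2, 3 and 4 in each group. The series title asks which proteins take part in cyclic peptide uptake. No untreated cells stand beside the sorted ones, both groups come from a single cell line, and the sequence of EPP6 is not given in the sources used here.

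Neuropilins have a large outer part and a short tail without enzyme activity. One of their outer domains has a pocket that binds peptides and proteins ending in arginine, a property known as the C-end rule, and such peptides are carried into cells with the receptor. EPP6 is cyclic, and the sources used here do not say how its ring is closed. Whether it has a free end, or an arginine there, is therefore not known. Class 3 semaphorins, the secreted class, bind neuropilins through their sema domain and through a basic, arginine-rich tail, which furin-like proteases cut. They signal through A-type plexins held in the same complex. Classes 4 to 7 are held in the membrane and mostly bind plexins directly. In the nervous system these families steer growing axons, and in glioma they have been studied for their part in invasion and vessel growth.

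The arginine-rich tails of the neuropilin ligands are shown here because a terminal arginine is what the neuropilin pocket binds. The last 20 codons before the stop are printed for VEGFA, the main neuropilin ligand outside the semaphorins, and for the class 3 semaphorins SEMA3A, SEMA3B, SEMA3C and SEMA3E, the tested ones with the highest levels. They come from coding sequences of GENCODE release 29 (GRCh38), 5′ to 3′, with arginine codons in capitals. VEGFA lies on chromosome 6, SEMA3B on chromosome 3 and the others on chromosome 7.
VEGFA: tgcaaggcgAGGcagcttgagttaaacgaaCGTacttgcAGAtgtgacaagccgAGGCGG
SEMA3A: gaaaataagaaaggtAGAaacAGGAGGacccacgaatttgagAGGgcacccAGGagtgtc
SEMA3B: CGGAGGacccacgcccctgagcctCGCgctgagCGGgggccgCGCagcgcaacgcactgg
SEMA3C: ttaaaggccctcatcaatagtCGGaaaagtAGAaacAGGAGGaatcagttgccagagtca
SEMA3E: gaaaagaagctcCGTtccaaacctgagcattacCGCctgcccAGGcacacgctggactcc
Of these 20 codons, 5 encoded arginine in VEGFA, SEMA3A and SEMA3B, 4 in SEMA3C and 3 in SEMA3E. VEGFA alone of these ended on an arginine codon, CGG. The semaphorin tails carried their arginine codons inside the stretch and, as encoded, ended on another amino acid. These are the ends before any cut by furin-like proteases, and the ends left by such a cut are not shown.

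Library totals ran from 13712263 to 40742857 counts, with high replicate 3 the shallowest. In a principal component analysis of all tested genes the first component, with 38.0% of the variance, separated high from low uptake libraries. The second, with 31.5%, set both libraries numbered 2 (scores 18.62 in high and 23.80 in low uptake) apart from the other 4 (-23.15 to -4.99), so counts are also given below without them. Glioma markers matched the label in part: VIM averaged 12120 TPM in high and 11530 TPM in low uptake cells and CD44 719.4 and 630.1 TPM, while GFAP stayed below 1 TPM in each library and SOX2 had 1 count in all 6. None of the 7 glioma markers tested passed the threshold. CHI3L1 differed most, at 151.0 TPM in high and 74.2 TPM in low uptake cells (log2 fold change 0.99, edgeR adjusted p = 0.0890, no overlap). OLIG2 lay lower in each high uptake library (-0.46, adjusted p = 0.320), NES had -0.18 and EGFR 0.03. Markers of other cell types were summed over 6 genes a list. The endothelial list reached 2.42 to 2.65 TPM in high and 1.55 to 1.97 TPM in low uptake libraries, mostly TEK, with none of its members passing the threshold and CDH5, TIE1 and CLDN5 under 0.2 TPM. The neuronal list reached 363.9 to 405.0 TPM in high and 289.1 to 345.1 TPM in low uptake libraries, nearly all of it TUBB3. STMN2 was at 0 counts throughout, and SNAP25, a synaptic gene, was the list's 1 member to rise (log2 fold change 0.80, edgeR adjusted p = 0.00987). The immune list, mostly CSF1R and with AIF1 at 0, reached 9.97 to 11.6 TPM in high and 11.3 to 12.9 TPM in low uptake libraries, and the epithelial list 4.54 to 4.87 TPM in high and 4.02 to 4.61 TPM in low uptake libraries. Both overlapped.

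Levels are compared between genes in TPM, a share of all transcripts that the authors scaled by gene length. NRP1 led with a mean of 220.8 TPM over the 6 libraries, and 2.98% of all genes in the files stood above it. SEMA7A, a semaphorin anchored by a lipid that binds integrins and PLXNC1, followed at 201.4 TPM. These were the 2 members over 100 TPM, and their ranges overlapped. Between 10 and 100 TPM lay 9 members: PLXNB2 (83.6 TPM), SEMA3C (51.9), PLXNA1 (40.9), NRP2 (40.8), SEMA4B (32.3), PLXNA3 (30.4), SEMA4F (20.1), SEMA4C (17.0) and PLXNB3 (14.7). SEMA5A, at 8.88 TPM, headed the 10 members from 1 to 10 TPM, with PLXND1, SEMA3A, SEMA3B, PLXNA2, PLXNA4, SEMA6B, SEMA4G, SEMA6C and SEMA4D below it. The remaining 10 were under 1 TPM. Of the 30 neighbouring pairs in this order, 5 did not overlap over the 6 libraries: SEMA7A over PLXNB2, PLXNB2 over SEMA3C, PLXNA3 over SEMA4F, SEMA5A over PLXND1, and SEMA3D over SEMA3F. In 3 further pairs, NRP2 over SEMA4B, PLXNB3 over SEMA5A and SEMA4G over SEMA6C, the first was above the second within each of the 6 libraries, although their ranges over all libraries overlapped. The other neighbours did not keep their order in every library.

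**Figure D1:**
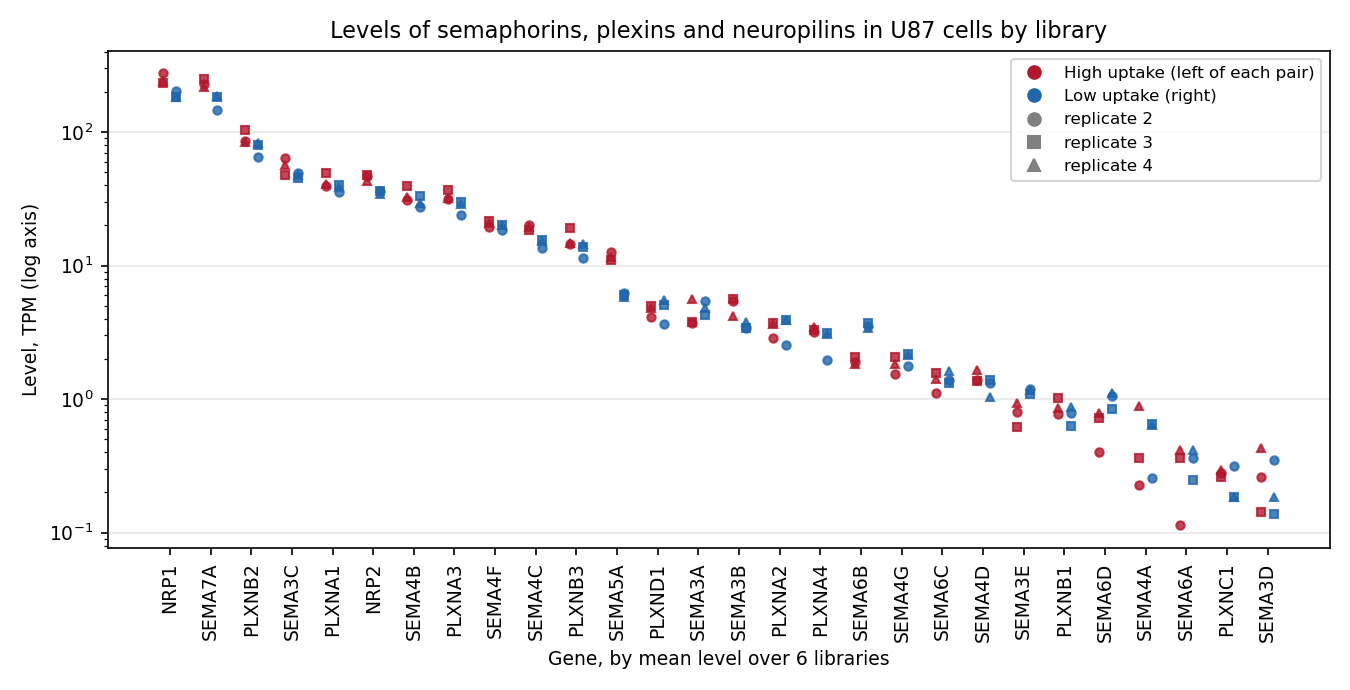
Level of each tested member in each library, in TPM on a log axis, with high uptake libraries (red) left of low uptake libraries (blue) and a shape for each replicate. Members run from NRP1, at a mean of 220.8 TPM, to SEMA3D, at 0.25 TPM, and most neighbours overlap.

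A few genes made up most of each family's RNA. NRP1 supplied 83.1% to 85.4% of neuropilin TPM in high uptake libraries and 83.5% to 85.0% in low uptake libraries, and its level was 4.92 to 5.86 times that of NRP2 over all 6. SEMA3C supplied 82.5% to 86.1% of class 3 TPM in high and 82.7% to 83.6% in low uptake libraries. PLXNB2 supplied 45.6% to 46.9% of plexin TPM in high and 44.7% to 46.3% in low uptake libraries. These shares overlapped between high and low uptake. SEMA7A supplied 57.3% to 61.5% of semaphorin TPM in high uptake libraries and 51.8% to 57.2% in low uptake libraries, which did not overlap. Summed over the 31 genes, the level was 846.8 to 914.0 TPM in high and 668.0 to 721.4 TPM in low uptake libraries, again without overlap.

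Across all 14598 genes tested with edgeR's quasi-likelihood test, 4.29% passed an adjusted p of 0.05 (3.03% higher and 1.26% lower in high uptake). Of the 28 members tested, 3 were higher and 1 was lower. Their log2 fold changes had a median of 0.18 (19 positive, 9 negative), beside a median of -0.00 over all genes tested. The 3 high uptake values lay wholly above the 3 low uptake values in 7 members and wholly below in 3, where 13.0% of all tested genes lay above and 11.4% below, 24.4% in all. These 10 members were NRP1, NRP2, PLXNA3, SEMA3B, SEMA4C, SEMA5A and SEMA7A above, and SEMA3E, SEMA6B and SEMA6D below. The authors' deposited table, a list of 2305 gene symbols without values that holds 15.8% of the genes tested, contains the same 10 members and none of the other 21. That list comes from the same libraries and is no independent support. At a mean of 10 CPM or more (read counts as a share of the library, scaled by edgeR's TMM), 13 of 16 members had a positive log2 fold change (median 0.23), beside 4927 of 9788 among all genes at that level. Below 10 CPM, 6 of 12 members were positive.

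With each library's trend with gene GC content removed, more passed: 9 members were higher and 2 lower, where 9.67% of all genes were higher and 7.27% lower. The added members were PLXNA3, PLXNB2, PLXNB3, SEMA3B, SEMA4C and SEMA7A among those higher and SEMA3E among those lower. Without both libraries numbered 2, 4 members were higher (SEMA7A added) and 1 lower, where 5.51% of all genes passed. When high replicate 2 was left out, SEMA5A and SEMA6B alone passed, where 1.95% of all genes did. The same 2 members alone passed when high replicate 4 (2.63%), low replicate 3 (1.85%) or low replicate 4 (1.55%) was left out.

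**Figure D2:**
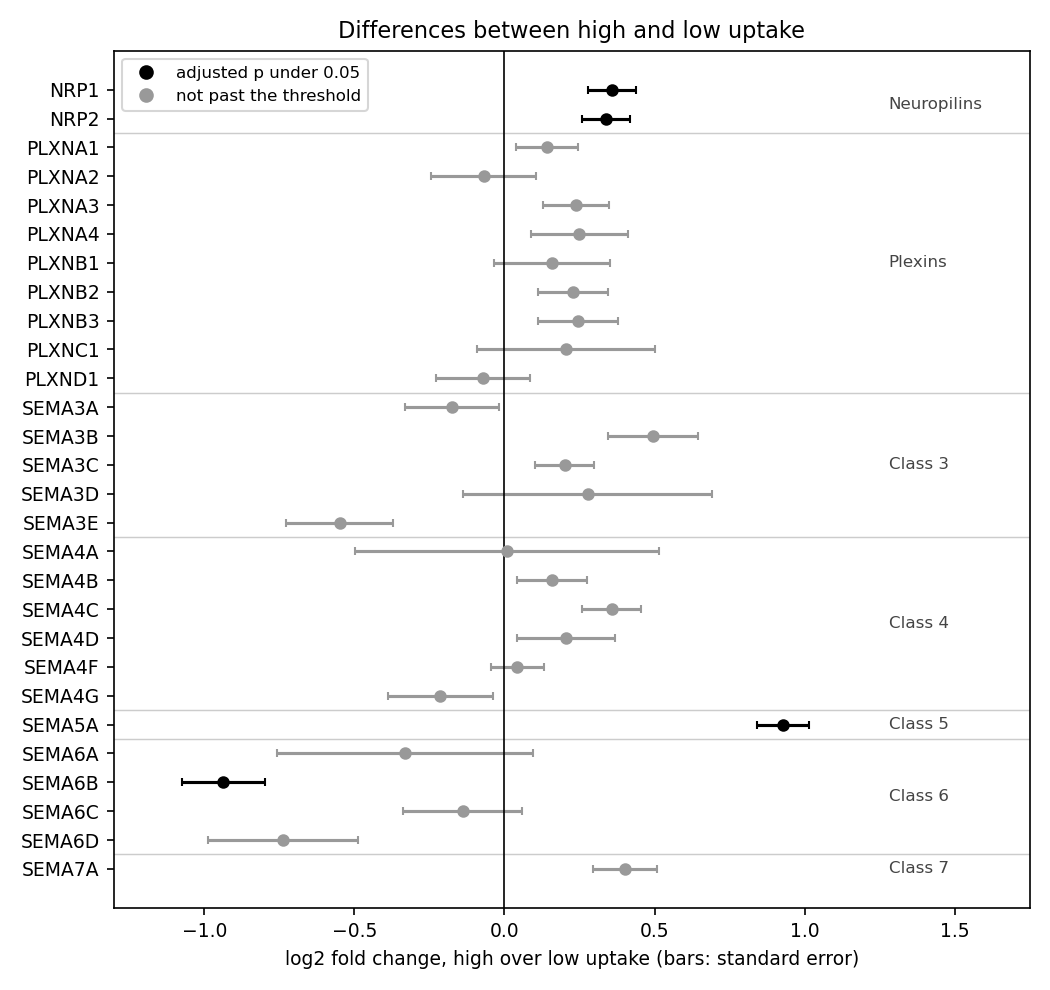
Log2 fold change of the 28 tested members, high over low uptake, with bars of 1 standard error, grouped by family from the neuropilins at the top to class 7 at the bottom. The 4 members past an adjusted p of 0.05 are black: NRP1 (0.36), NRP2 (0.34), SEMA5A (0.93) and SEMA6B (-0.94).

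Both neuropilins rose in high uptake cells, by about the same factor. NRP1 (chromosome 10, 33177493 to 33334667 in GRCh38) had 663.2, 574.2 and 571.8 CPM in high replicates 2, 3 and 4, against 497.2, 458.6 and 455.7 CPM in low replicates 2, 3 and 4. Each high uptake library was above each low uptake library, and replicate 2 was the highest of its group in both. The means were 603.0 ± 52.1 CPM in high and 470.5 ± 23.2 CPM in low uptake cells (SD, n = 3 each), a log2 fold change of 0.36 (SE 0.0808, edgeR adjusted p = 0.0310). NRP2 (chromosome 2, 205682501 to 205798131), which binds SEMA3C and SEMA3F among the semaphorins and VEGFC among the growth factors, had 147.8, 152.4 and 134.1 CPM in high uptake libraries, against 114.2, 118.5 and 110.6 CPM in low uptake libraries. The groups did not overlap here either. The means were 144.8 ± 9.54 CPM in high and 114.5 ± 3.98 CPM in low uptake cells (SD, n = 3 each), a log2 fold change of 0.34 (SE 0.0801, edgeR adjusted p = 0.0388).

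The NRP1 call was lost without high replicate 2 (edgeR adjusted p = 0.105), high replicate 4 (0.0517), low replicate 3 (0.124) or low replicate 4 (0.156), with log2 fold changes from 0.29 to 0.40. The NRP2 call was lost without any single library (edgeR adjusted p from 0.0548 to 0.189, log2 fold change from 0.29 to 0.40), with total counts as the only scaling (0.0516) and with the length trend removed (0.124). Without both libraries numbered 2, NRP1 had a log2 fold change of 0.33 (edgeR adjusted p = 0.0205) and NRP2 of 0.32 (0.0354). Neuropilins are also high in endothelial and neuronal cells, whose summed markers above were higher in high uptake libraries. These sums rested mostly on TEK (edgeR adjusted p = 0.131) and TUBB3 (0.419), neither of which passed. SNAP25, on the neuronal list, did pass (log2 fold change 0.80, edgeR adjusted p = 0.00987). Of the tested endothelial markers 2 had a positive and 1 a negative log2 fold change, and all 5 neuronal ones were positive. The part of those markers in the neuropilin differences was not tested. In RNA from pooled cells, more cells carrying a transcript and more of it per cell cannot be told apart. The exons of NRP1 and NRP2 share 561 and 147 bases with genes on the opposite strand in GENCODE release 29, and the strand setting of the authors' counting is not given in the sources used here.

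**Figure D3:**
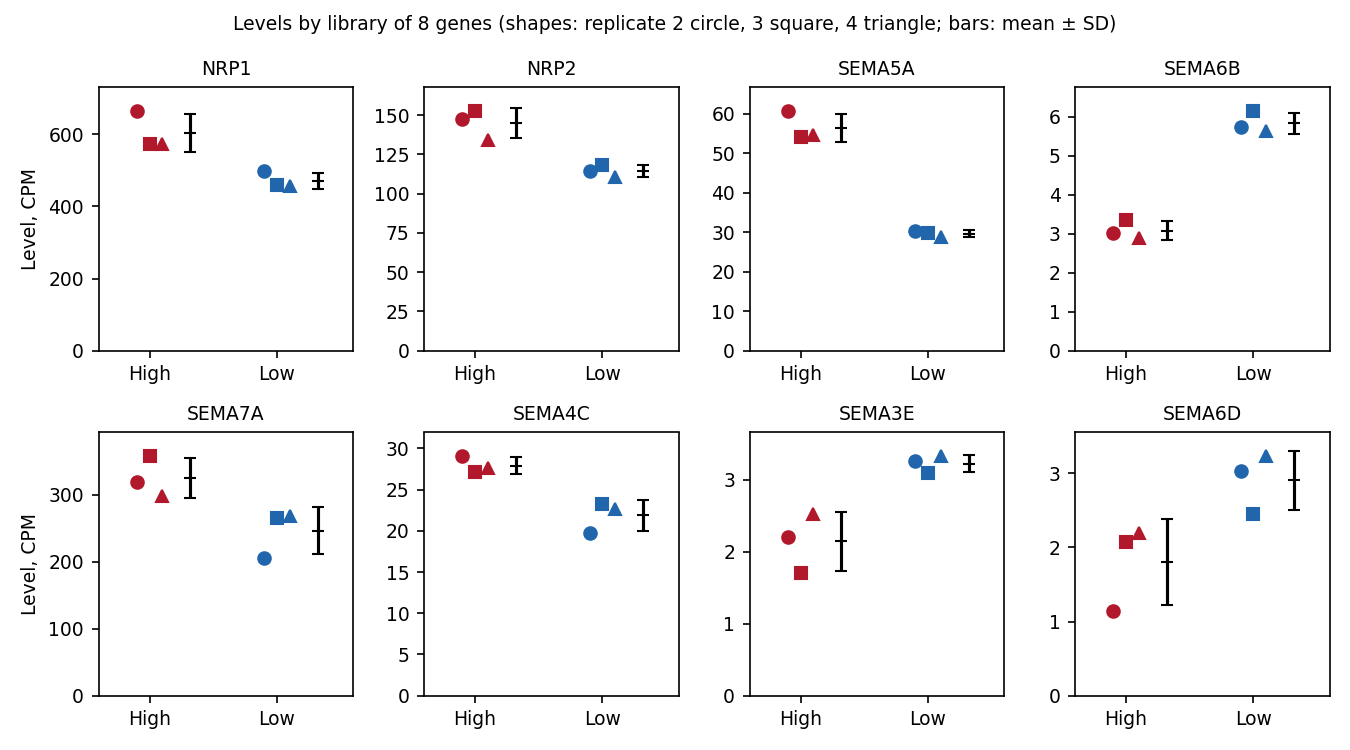
Level in CPM of 8 members in each library, high uptake left and low uptake right, with the mean and SD of each group beside the points. For example, SEMA5A averaged 56.4 CPM in high and 29.6 CPM in low uptake cells, and SEMA6B 3.08 and 5.83 CPM.

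Of 14 genes for other neuropilin ligands and for adaptors of the neuropilin tail, 11 were tested, 1 rose and none fell, and the median log2 fold change was 0.02. Over all tested genes, 3.03% rose and 1.26% fell. PGF, a placental growth factor of the VEGF family, had 3.64, 3.04 and 3.36 CPM in high uptake libraries, against 1.19, 1.91 and 2.10 CPM in low uptake libraries. It rose by a log2 fold change of 1.01 (SE 0.221, edgeR adjusted p = 0.0270). It rested on 41 to 147 counts a library, and its call was lost under 5 of 16 other settings. VEGFA had 562.3, 544.9 and 525.2 CPM in high and 435.6, 465.3 and 474.6 CPM in low uptake libraries. Its groups did not overlap, yet its log2 fold change of 0.25 did not pass (SE 0.0705, edgeR adjusted p = 0.0775). GIPC1, the adaptor that binds the neuropilin tail and links it to myosin VI during internalisation, differed by 0.02 on the log2 scale, with a 95% interval of -0.18 to 0.21 and an edgeR adjusted p of 0.949.

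Of 15 co-receptors and other semaphorin receptors, 9 were tested, 1 rose and none fell (median log2 fold change 0.03), where 3.03% of all genes rose and 1.26% fell. ITGB1, the integrin subunit that SEMA7A binds, had 1223, 973.5 and 1121 CPM in high uptake libraries, against 911.8, 822.7 and 858.1 CPM in low uptake libraries. Its groups did not overlap, and it rose by a log2 fold change of 0.36 (SE 0.0887, edgeR adjusted p = 0.0464), a call lost under 6 of 17 other settings. KDR, the VEGF receptor that pairs with NRP1, had 3.76, 4.82 and 4.77 CPM in high and 5.87, 6.27 and 6.50 CPM in low uptake libraries (log2 fold change -0.49, edgeR adjusted p = 0.0819), with no overlap. Per length, NRP1 stood 122 to 180 times above KDR in high uptake libraries and 71.7 to 86.7 times in low uptake libraries. MET, a receptor kinase that pairs with B-type plexins, differed by 0.03 on the log2 scale, with an interval of -0.13 to 0.19. L1CAM, a co-receptor for SEMA3A, had 1 to 8 counts a library and was not tested.

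The secreted class 3 semaphorins held no member past the threshold, where 4.29% of all tested genes passed. Of 7 genes 5 were tested, 3 with a positive and 2 with a negative log2 fold change. Unadjusted p was under 0.05 for 2 of the 5, where 18.4% of all genes were. SEMA3C, which signals through NRP1, NRP2 and plexins, was the main class 3 gene, with 134.0, 102.7 and 117.1 CPM in high and 105.2, 99.2 and 104.0 CPM in low uptake libraries. Its log2 fold change was 0.20 with a 95% interval of 0.01 to 0.39 (edgeR adjusted p = 0.309), and high replicate 3 lay among the low uptake values. Although this interval was wholly positive, the unadjusted edgeR p was 0.0639. SEMA3B, known as a tumour suppressor in lung, had 7.50, 7.79 and 5.70 CPM in high and 4.68, 4.82 and 5.33 CPM in low uptake libraries. The groups lay apart by a narrow gap, with a log2 fold change of 0.49 (SE 0.150, edgeR adjusted p = 0.0946). SEMA3E, the class 3 member that binds PLXND1 without a neuropilin, had 2.20, 1.71 and 2.52 CPM in high and 3.26, 3.09 and 3.33 CPM in low uptake libraries. It lay lower in each high uptake library, with a log2 fold change of -0.55 (SE 0.178, edgeR adjusted p = 0.118).

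SEMA3A, the classical axon repellent that binds NRP1, had 8.59, 8.91 and 12.66 CPM in high and 12.52, 10.23 and 11.39 CPM in low uptake libraries. High replicate 4 was the highest of the 6, so the groups overlapped, and the log2 fold change was -0.17 (edgeR adjusted p = 0.611). SEMA3D stayed at 0.36 to 1.08 CPM. SEMA3F, a ligand of NRP2, had 7 counts in all 6 libraries together and SEMA3G 10, and neither was tested.

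Class 4 semaphorins cross the membrane and bind B-type plexins and other receptors. None of the 6 passed, where 4.29% of all tested genes did, and the median log2 fold change was 0.10. SEMA4C, a ligand of PLXNB2, came nearest, with 29.02, 27.09 and 27.58 CPM in high and 19.72, 23.23 and 22.69 CPM in low uptake libraries. The groups did not overlap, with a log2 fold change of 0.36 (SE 0.0974, edgeR adjusted p = 0.0662). SEMA4C passed under 5 of 17 other settings: DESeq2, no filter on low counts, the GC trend removed, and a replicate block with and without that trend removed. SEMA4B ranged over 44.6 to 64.6 CPM and SEMA4F over 46.2 to 54.1 CPM, with overlapping groups and log2 fold changes of 0.16 and 0.04. The interval for SEMA4F, -0.13 to 0.22, was the narrowest of the class. SEMA4D, the ligand of PLXNB1 known from immune cells, stood at 2.93 to 4.53 CPM (log2 fold change 0.20). SEMA4G stood at 2.77 to 4.05 CPM (-0.21), and 1170 bases of its exons are shared with MRPL43 on the opposite strand. SEMA4A, at 0.32 to 1.23 CPM, had an interval of -0.98 to 1.00, too wide at this depth to show a difference.

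SEMA5A was the member with the largest rise. It is a transmembrane semaphorin with thrombospondin repeats, which bind heparan and chondroitin sulfate chains, and its plexin is PLXNB3. SEMA5A (chromosome 5, 9035033 to 9546075 in GRCh38) had 60.6, 54.0 and 54.6 CPM in high uptake libraries, against 30.4, 29.9 and 28.7 CPM in low uptake libraries. The groups were far apart beside their spread, at 56.4 ± 3.65 CPM in high and 29.6 ± 0.898 CPM in low uptake cells (SD, n = 3 each). The rise was 1.90-fold, a log2 fold change of 0.93 (SE 0.0878, edgeR adjusted p = 4.06e-04). It passed under each of the 17 other settings, with log2 fold changes of 0.80 to 0.96. Per length, SEMA5A stood at 0.580 to 0.871 times PLXNB3 in high uptake libraries and 0.399 to 0.548 times in low uptake libraries. A gene on the opposite strand shares 436 bases of its exons. SEMA5B, the other class 5 gene, had 0 counts in all 6 libraries, which allows up to 0.0178 CPM by counting error alone.

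The 250 bases before the start are shown for SEMA5A and for NRP2, the called members with an entry in the RefSeq promoter table (GRCh38.p14), 5′ to 3′ along the gene, with matches to the GC box GGGCGG on either strand in capitals.
SEMA5A, chr5:9546076-9546325, minus strand: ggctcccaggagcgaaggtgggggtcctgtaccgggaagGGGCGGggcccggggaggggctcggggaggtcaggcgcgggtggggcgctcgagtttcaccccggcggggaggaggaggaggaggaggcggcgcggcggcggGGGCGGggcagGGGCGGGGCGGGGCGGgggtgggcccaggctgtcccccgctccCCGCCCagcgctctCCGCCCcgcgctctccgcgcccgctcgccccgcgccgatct
NRP2, chr2:205682251-205682500, plus strand: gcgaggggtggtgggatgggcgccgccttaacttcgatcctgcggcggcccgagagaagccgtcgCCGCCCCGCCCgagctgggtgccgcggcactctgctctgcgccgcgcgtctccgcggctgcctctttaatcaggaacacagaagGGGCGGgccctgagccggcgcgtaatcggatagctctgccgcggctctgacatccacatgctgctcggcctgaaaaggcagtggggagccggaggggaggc
SEMA5A held 7 GC boxes and NRP2 held 3, and adjoining boxes can share a base. Of the 31 genes, 27 had a promoter in the table, and 18 of these 27 held a GC box, beside 42.64% of all 35116 promoters. The members' windows were richer in GC, with a median of 64.4% beside 58.0% over all promoters. The windows of SEMA5A and NRP2 adjoin the RefSeq gene starts, which is no check against a second annotation. For 14 of the 27 members the bases after the RefSeq start were found in a GENCODE transcript, and the PLXNC1 window (from 94262369 on chromosome 12) lies inside the gene (94148577 to 94307675), so some windows may not precede the start used in these cells. The other motifs were searched on both strands of the same windows. ACGTG, the core of the hypoxia response element, was in 5 of the 27 (18.51% of all promoters), and CACGTG, the E-box, which contains it, in 3 (6.34%). GGAATG, the TEAD core, was in 2 (11.89%), TGANTCA, the AP-1 element, in 1 (6.57%), and TATAAA, the TATA box, and GTCTAGAC, a SMAD element, in 0 (10.72% and 0.18%). A match describes letters in the window and is not evidence of binding.

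SEMA6B was the 1 member that fell. Class 6 semaphorins cross the membrane and bind A-type plexins, SEMA6B pairing with PLXNA4. SEMA6B (chromosome 19, 4542593 to 4559684 in GRCh38) had 3.02, 3.34 and 2.88 CPM in high uptake libraries, against 5.75, 6.14 and 5.62 CPM in low uptake libraries. The groups did not overlap, and the means were 3.08 ± 0.235 CPM in high and 5.83 ± 0.268 CPM in low uptake cells (SD, n = 3 each). The log2 fold change was -0.94 (SE 0.139, edgeR adjusted p = 0.00405), and it passed under each of the 17 other settings, from -0.99 to -0.89.

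The other 3 class 6 genes did not pass, though all 4 log2 fold changes of the class were negative, with a median of -0.53. SEMA6D, a ligand of PLXNA1 known from heart development, had 1.14, 2.08 and 2.19 CPM in high and 3.03, 2.45 and 3.23 CPM in low uptake libraries (log2 fold change -0.74, SE 0.251, edgeR adjusted p = 0.136). Its groups did not overlap, and high replicate 2 was the lowest value. SEMA6C stood at 1.83 to 2.74 CPM (-0.14) and SEMA6A at 0.32 to 1.22 CPM (-0.33), with overlapping groups. The class's summed level was 3.52 to 4.70 TPM in high and 6.09 to 6.55 TPM in low uptake libraries, of which SEMA6B supplied 1.82 to 2.05 TPM in high and 3.40 to 3.69 TPM in low uptake libraries.

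SEMA7A, high in both groups, had 319.5, 357.4 and 298.7 CPM in high uptake libraries, against 205.7, 264.7 and 268.1 CPM in low uptake libraries. The groups did not overlap, though low replicate 2 lay well under its own group. The means were 325.2 ± 29.8 CPM in high and 246.2 ± 35.1 CPM in low uptake cells (SD, n = 3 each), and the log2 fold change of 0.40 did not pass (SE 0.108, edgeR adjusted p = 0.0628). Over the 17 other settings its adjusted p ran from 2.90e-04 to 0.113, and it passed in 6 of them. Its plexin receptor PLXNC1 was at 0.59 to 0.98 CPM, so SEMA7A stood 461 to 1010 times above it per length.

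Plexins carry the signal across the membrane through an inner domain that switches off small GTPases of the Ras family. None of the 9 passed, where 4.29% of all tested genes did. Their log2 fold changes were positive in 7 and negative in 2, with a median of 0.21. Among all tested genes 7191 were positive and 7407 negative. PLXNB2, a receptor for SEMA4C, had 220.8, 271.3 and 214.1 CPM in high and 169.3, 213.2 and 219.5 CPM in low uptake libraries. Low replicate 4 lay above high replicate 4, so the groups overlapped, and the log2 fold change was 0.23 (SE 0.116, edgeR adjusted p = 0.328). PLXNA3, a partner of NRP2 in SEMA3F signalling, was the 1 plexin whose groups did not overlap, with 86.4, 102.1 and 86.4 CPM in high and 66.3, 84.7 and 81.9 CPM in low uptake libraries. Its log2 fold change was 0.24 (SE 0.109, edgeR adjusted p = 0.272). PLXNB3, the receptor of SEMA5A, had 37.6, 50.3 and 37.7 CPM in high and 29.9, 36.8 and 38.8 CPM in low uptake libraries (log2 fold change 0.24, edgeR adjusted p = 0.364). Its exons share 1432 bases with SRPK3 on the same strand, which had 9 to 34 counts a library.

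PLXNA1, the main A-type plexin here, ranged over 133.0 to 185.5 CPM with a log2 fold change of 0.14 and a 95% interval of -0.06 to 0.34. PLXNA4, a receptor in SEMA3A and class 6 signalling, had 20.0, 20.9 and 21.3 CPM in high and 12.5, 20.3 and 20.0 CPM in low uptake libraries. Low replicate 2 was the 1 library that stood apart (log2 fold change 0.25, edgeR adjusted p = 0.453). PLXNA2 (-0.07) and PLXND1 (-0.07) were lowest in both libraries numbered 2, at 13.3 CPM in high and 11.98 CPM in low uptake for PLXNA2 and at 11.7 and 10.5 CPM for PLXND1. PLXNB1, the SEMA4D receptor, stood at 1.95 to 3.12 CPM (0.16) and PLXNC1 had a log2 fold change of 0.21 with an interval of -0.38 to 0.79.

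Downstream of plexins, 37 of 41 signalling genes were tested, of which 2 rose and none fell (median log2 fold change 0.07). The shares of all tested genes that rose and fell were 3.03% and 1.26%. DPYSL2, also called CRMP2, which binds tubulin and carries the SEMA3A signal to microtubules, had 209.9, 185.1 and 168.2 CPM in high uptake libraries, against 133.0, 121.1 and 125.0 CPM in low uptake libraries. The groups did not overlap, and it rose by a log2 fold change of 0.57 (SE 0.0922, edgeR adjusted p = 0.00636). FYN, a Src-family kinase recruited by A-type plexins, had 137.6, 129.3 and 122.0 CPM in high and 94.0, 95.6 and 94.4 CPM in low uptake libraries. It rose by a log2 fold change of 0.45 (SE 0.0780, edgeR adjusted p = 0.00891), again without overlap. DPYSL2 passed under each of the 17 other settings and FYN under 16 of them.

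Among proteases that act on semaphorins or their receptors, 7 of 8 genes were tested, 1 rose and none fell (median log2 fold change 0.10). The shares over all tested genes were 3.03% and 1.26%. ADAMTS1, a secreted metalloprotease, had 438.1, 430.5 and 424.1 CPM in high uptake libraries, against 291.1, 342.2 and 362.7 CPM in low uptake libraries. It rose by a log2 fold change of 0.38 (SE 0.0864, edgeR adjusted p = 0.0335), without overlap, and the call was lost under 7 of 17 other settings. FURIN, which cuts class 3 semaphorin tails, had 118.1, 147.8 and 129.0 CPM in high and 101.2, 134.6 and 132.1 CPM in low uptake libraries. These overlapped, with a log2 fold change of 0.10 and an interval of -0.13 to 0.33.

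Of 41 genes from other guidance families (ephrins, slits, netrins and their receptors), 24 were tested, 2 rose and none fell (median log2 fold change -0.01). Beside them, 3.03% of all tested genes rose and 1.26% fell. ROBO1, the slit receptor, had 116.1, 112.1 and 110.7 CPM in high and 78.9, 80.4 and 84.3 CPM in low uptake libraries. It rose by a log2 fold change of 0.48 (SE 0.0758, edgeR adjusted p = 0.00588), without overlap. EPHA3, an ephrin receptor kinase, averaged 1.66 ± 0.448 CPM in high and 0.789 ± 0.147 CPM in low uptake cells (SD, n = 3 each), a log2 fold change of 1.13 (SE 0.270, edgeR adjusted p = 0.0398). It rested on 14 to 84 counts a library, and its call was lost under 7 of 16 other settings.

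**Figure D4:**
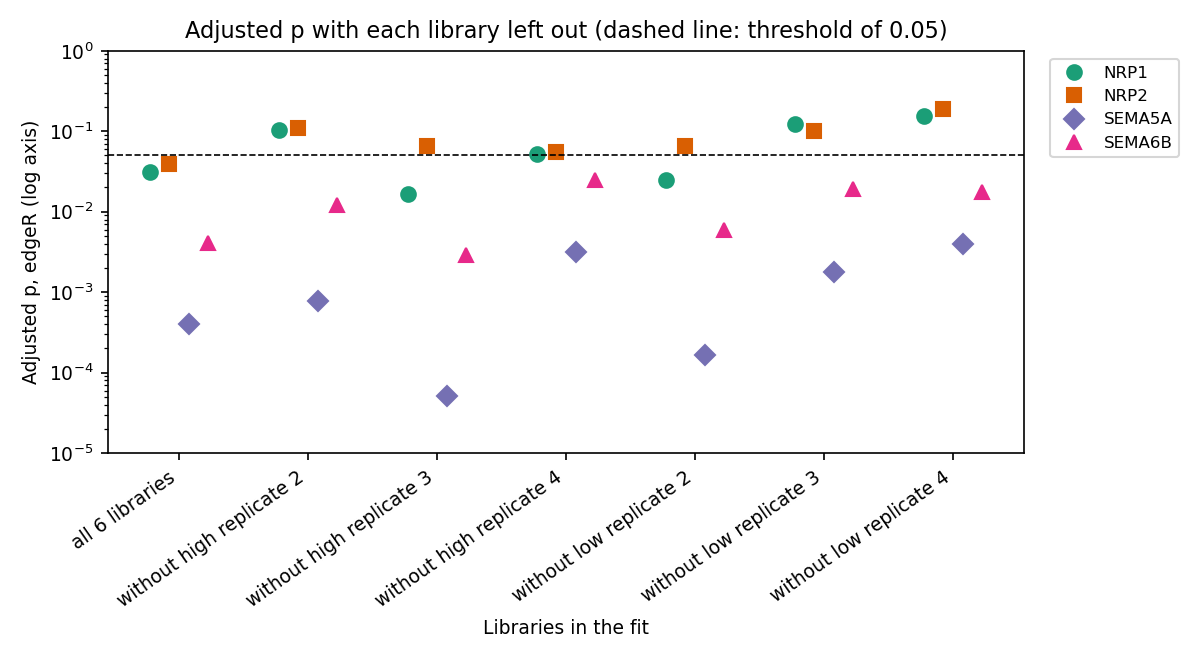
Adjusted p on a log axis for NRP1, NRP2, SEMA5A and SEMA6B with all 6 libraries and with each library left out, beside a dashed line at the threshold of 0.05. SEMA5A and SEMA6B stay under the line throughout, NRP1 crosses it in 4 of the 6 fits with a library left out and NRP2 in all 6.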

How the data were processed

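RNA-seq of 6 U87 libraries was used, 3 of high uptake and 3 of low uptake cells, grouped and numbered by their titles. A directional kit was used on total RNA, per the labels' protocols. fastp, STAR and featureCounts with genome build hg19 were used, per the submitters' processing notes. The sources used here give no versions, settings, annotation or strand option. The deposited files hold whole-number read counts per gene symbol. They also hold the authors' FPKM and TPM columns. Counts were tested, TPM served to compare genes, and FPKM gave only the gene-model length, which agreed between libraries within 7.80e-07 bp. The authors' list of gene symbols was also read.

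Genes were kept by filterByExpr (minimum count 10, minimum total 15), which left 14598 of 25680. High and low uptake were compared by edgeR's quasi-likelihood F-test (edgeR 4.0.16, limma 3.58.1, R 4.3.3) with TMM scaling, robust moderation, no covariate, two-sided, and Benjamini-Hochberg adjustment over all genes at 0.05. The standard error was the log2 fold change divided by the square root of F, and 95% intervals are 1.96 standard errors either way. That multiplier is for a normal distribution, so with 3 libraries a group the intervals are narrower than the F-test allows. The common biological coefficient of variation was 0.0990. On simulated data for 14488 tested genes, edgeR found 34% of 50 genes with a 1.3-fold change, 78% for 1.5-fold, 88% for 2-fold and 94% for 3-fold, along with 14 of 14398 genes left unchanged. These simulated libraries were drawn independently, without differences shared by replicate number or trends with GC content. The rates in the real libraries may therefore differ. Nothing in the labels says that libraries came from separate cultures, so p-values measure the spread between these libraries, which may be technical. Count differences within a group, as a chi-square per degree of freedom, were 2.4 between low replicates 3 and 4. The other pairs within a group had 12 to 20.5. Low replicates 3 and 4 were thus much closer than the rest, yet the tests treat them as separate libraries.

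The members and gene lists were chosen with earlier results of these data known. Every tested member is named, and of each list the genes past the threshold plus VEGFA, GIPC1, MET, L1CAM and FURIN, with KDR, SNAP25 and other markers named beside them after their values were seen. Alternatives were other scalings and filters, DESeq2 1.42.0, limma-voom, a replicate block, GC and length trends removed, and libraries left out. GC content came from GENCODE release 29 for 13549 of the 14598 genes. Coordinates and sequences are of GRCh38, not the authors' build, and were matched by symbol.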

Additional observations from a re-analysis of the deposited data

How the results depend on the processing

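Results were recomputed under 17 other settings. NRP1, NRP2, SEMA5A and SEMA6B kept their direction in each of them. The count of all genes past the threshold, 626, became 3176 with a replicate block, 4069 with the block and the GC trend removed, 2473 with the GC trend removed, and 232 to 738 with a library left out. Members past the threshold, 4, became 13, 15 and 11 in the first 3 of these and 2 to 3 with a library left out. Co-receptors, 1, became 2, 3 and 2, then 0 with total counts only or the length trend removed, and 0 to 1 with a library left out. Other neuropilin partners, 1, became 3, 3 and 3, 2 with DESeq2, 0 with at least 50 counts in at least 3 libraries or without both libraries numbered 2, and 0 to 1 with a library left out. Effectors, 2, became 9, 11 and 7, and 1 to 2 with a library left out. Proteases, 1, became 3, 3 and 3, 3 with DESeq2 or no filter, 0 with the length trend removed, and 0 to 2 with a library left out. Other guidance genes, 2, became 5 and 5 with the blocks, 1 with at least 50 counts or the length trend removed, and 1 to 2 with a library left out. The cause was not tested.

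The labels do not say whether the replicate numbers pair the libraries. Deviations of same-numbered libraries from their group means correlated at 0.452, 0.304 and 0.087. Each library correlated best with its own number except low replicate 4. Members added by the block alone were PLXNA3, PLXNB2, PLXNB3, SEMA3B, SEMA3C, SEMA4C, SEMA7A, SEMA3E and SEMA6D.

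Signs turned only for genes that never passed. With a library left out, log2 fold changes ran from -0.278 to 0.0524 for PLXNA2, -0.256 to 0.0504 for PLXND1, -0.126 to 0.832 for SEMA3D, -0.865 to 0.497 for SEMA4A, -0.0135 to 0.0788 for SEMA4F, -0.854 to 0.169 for SEMA6A, -0.0786 to 0.076 for GIPC1, -0.0139 to 0.0919 for MET and -0.0234 to 0.176 for FURIN. Without both libraries numbered 2, SEMA3A was at 0.0498, SEMA6A at 0.219 and GIPC1 at -0.0266. SEMA4A was at -0.0129 with total counts only, -0.00297 with no filter, -0.0694 with DESeq2, -0.0894 with limma-voom, -0.0749 with the replicate block, -0.0632 with the block and GC trend removed and -0.0073 with the length trend removed. With the length trend removed SEMA4F was at -0.00824 and MET at -0.026, and GIPC1 was at -0.00558 with total counts only. Depth limits members under 1 CPM (SEMA3D, SEMA4A, SEMA6A, PLXNC1), whose intervals all include 0, and intervals cover counting error and library spread only.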
